A study of Mus musculus with 4 samples.

Results

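The 6 genes of the intracellular calcium release channels, the ryanodine receptors *Ryr1*, *Ryr2* and *Ryr3* and the IP3 receptors *Itpr1*, *Itpr2* and *Itpr3*, were examined for H3K27ac in hearts of 7-month-old *mdx* mice. Each gene was taken as its GENCODE vM1 gene body plus 20 kb upstream on mm9, and every listed H3K27ac region centred there was kept. These windows held 11 of 12566 regions in *mdx* IKKβf/f hearts and 22 of 22981 in *mdx* HRTΔIKKβ. They are 6 of 21418 autosomal protein-coding genes to which the same rule was applied.

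Both genotypes lack dystrophin and carry floxed IKKβ alleles, IKKβ being the kinase that activates classical NF-κB signalling. *mdx* HRTΔIKKβ hearts additionally carried cre under the alpha myosin heavy chain (Myh6) promoter, which removes IKKβ in cardiomyocytes, whereas *mdx* IKKβf/f littermates of the same age had no cre. The number of hearts behind each library is not given in the sources used here. The study's *mdx* mice derived from the line C57BL/10 ScSn DMDmdx. The chromatin came from whole hearts, so the other cell types of *mdx* HRTΔIKKβ hearts kept IKKβ, and fewer cells of a type and less signal per cell cannot be told apart. There was 1 ChIP library per genotype with 1 input each, so no difference between genotypes has a replicate check, no test between them was made, and all intervals cover counting error only.

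Ryanodine receptors are large channels of the sarcoplasmic reticulum that release stored calcium when a muscle cell is excited. *Ryr2* encodes the cardiac isoform that opens in response to calcium entry at each beat, *Ryr1* encodes the main isoform of skeletal muscle, and *Ryr3* is expressed at lower levels in brain and several other tissues. IP3 receptors release calcium from the endoplasmic reticulum when phospholipase C produces IP3, with *Itpr2* known as the main isoform of cardiomyocytes, *Itpr1* as abundant in neurons and smooth muscle, and *Itpr3* in epithelial and secretory cells. Acetylation of lysine 27 on histone H3 is a mark of active promoters and enhancers.

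The region lists differed in ways that touch every count given here. Sequencing depth was 57852347 ChIP tags for IKKβf/f and 62458751 for HRTΔIKKβ, and the approximate IP efficiency in the file headers was 0.71% and 1.26%. This efficiency is the share of tags in the listed regions, so it is not independent of the number of regions. A region needed 29 tags in a 500 bp window in IKKβf/f hearts and 30 in HRTΔIKKβ hearts, which is 2.01 and 1.92 times the tags given by an even spread over the genome. Autosomes carried 5.24 regions per Mb in IKKβf/f hearts and 9.58 in HRTΔIKKβ hearts, so a gene window of a given length held on average more regions in HRTΔIKKβ hearts. For most marker genes of the labelled tissue no region was listed near a transcription start. Of 8 cardiomyocyte genes, *Ryr2* included, 1 (*Ttn*) had a region within 3 kb of a transcription start in IKKβf/f hearts and 0 had one in HRTΔIKKβ hearts. Of 12 genes of fibroblasts, endothelial cells, macrophages, skeletal muscle and neurons, 1 (*Rbfox3*) had one in IKKβf/f hearts and 3 (*Col1a1*, *Cdh5* and *Rbfox3*) had one in HRTΔIKKβ hearts. The share of all genes with such a region was not computed, so these counts cannot be read as particular to any cell type. In HRTΔIKKβ hearts 32 tags, or 2.05 times the even spread, is the lowest threshold at least as far above it as in IKKβf/f hearts. A threshold of 31 tags would be 1.99 times the even spread. At 32 tags the receptor genes would hold 16 regions in place of 22, or 59.3% of those of both genotypes. At the IKKβf/f depth they would hold 17.6 (61.6%). The threshold of 32 tags left 13876 autosomal regions in the HRTΔIKKβ list, beside 12540 in the IKKβf/f list. A stricter limit on 1 list alone can only lower its count, so nothing is concluded from the smaller difference. Its size also depends on the rounding to whole tags, since 17.6% of the HRTΔIKKβ list scored 31. The part of the IP efficiency and of the cell types in the receptor-gene counts was not tested.

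The regions themselves show what kind of sequence was listed. For each receptor gene, the central 300 bases of its highest-scoring region, in either genotype, are printed from the plus strand of the mm9 genome. Ties in score, as in *Ryr1*, *Ryr3* and *Itpr1*, were settled by the larger number of normalized tags, and for *Ryr3* a region of each genotype tied at 33. The first 2 stretches contain a short word repeated many times, and capitals mark the copies of the commonest 8-base word where it occurred at least 4 times. These are 15 copies, some overlapping, of GACAGACA in intron 62 of *Ryr2* and 18 copies of CTGCACAG in intron 10 of *Itpr2*. The other 4 stretches had no word with 4 copies and are in lower case.
Ryr2: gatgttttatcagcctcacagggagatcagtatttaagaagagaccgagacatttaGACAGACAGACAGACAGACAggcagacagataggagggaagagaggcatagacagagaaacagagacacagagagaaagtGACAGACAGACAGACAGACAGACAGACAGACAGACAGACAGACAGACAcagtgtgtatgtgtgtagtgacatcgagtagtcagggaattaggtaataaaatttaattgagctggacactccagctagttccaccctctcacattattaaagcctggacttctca
Itpr2: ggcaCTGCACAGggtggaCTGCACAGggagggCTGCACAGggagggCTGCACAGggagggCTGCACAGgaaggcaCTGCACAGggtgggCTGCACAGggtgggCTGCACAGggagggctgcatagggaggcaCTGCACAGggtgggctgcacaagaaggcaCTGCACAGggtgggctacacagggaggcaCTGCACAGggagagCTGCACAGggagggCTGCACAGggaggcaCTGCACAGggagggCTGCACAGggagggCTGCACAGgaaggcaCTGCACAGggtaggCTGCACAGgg
Ryr1: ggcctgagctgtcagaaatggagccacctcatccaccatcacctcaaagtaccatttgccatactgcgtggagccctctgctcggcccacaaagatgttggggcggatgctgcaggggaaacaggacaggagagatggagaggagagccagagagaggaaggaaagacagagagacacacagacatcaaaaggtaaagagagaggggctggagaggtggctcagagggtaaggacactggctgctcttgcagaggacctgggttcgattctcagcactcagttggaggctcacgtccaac
Ryr3: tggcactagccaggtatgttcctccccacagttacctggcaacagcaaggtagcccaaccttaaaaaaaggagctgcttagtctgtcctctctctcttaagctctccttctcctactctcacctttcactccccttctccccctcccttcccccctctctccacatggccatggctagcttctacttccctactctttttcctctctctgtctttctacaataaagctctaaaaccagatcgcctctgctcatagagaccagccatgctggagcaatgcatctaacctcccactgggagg
Itpr1: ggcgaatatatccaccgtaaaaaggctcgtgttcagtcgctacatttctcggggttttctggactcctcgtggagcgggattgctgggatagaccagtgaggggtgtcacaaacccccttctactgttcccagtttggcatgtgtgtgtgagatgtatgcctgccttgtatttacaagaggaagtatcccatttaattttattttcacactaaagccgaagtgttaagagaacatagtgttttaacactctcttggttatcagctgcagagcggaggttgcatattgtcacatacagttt
Itpr3: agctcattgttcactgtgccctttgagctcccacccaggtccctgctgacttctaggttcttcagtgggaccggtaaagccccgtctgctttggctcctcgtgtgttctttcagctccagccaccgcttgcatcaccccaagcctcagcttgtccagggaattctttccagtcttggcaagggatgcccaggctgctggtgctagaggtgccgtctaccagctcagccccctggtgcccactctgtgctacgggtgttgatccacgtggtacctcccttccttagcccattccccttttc

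The *Ryr2* stretch lies at chr13:11772049-11772348 and the *Itpr2* stretch at chr6:146351135-146351434. Those of *Ryr1*, *Ryr3*, *Itpr1* and *Itpr3* lie at chr7:29888586-29888885, chr2:112825842-112826141, chr6:108404025-108404324 and chr17:27212578-27212877. All but that of *Ryr3* came from the HRTΔIKKβ list, and 5 of the 6 hold no exon base. In the *Ryr1* stretch 109 of the 300 bases belong to coding exon 18. The *Itpr2* stretch had a GC content of 67.0% and no CpG, whereas the *Itpr1* stretch had a GC content of 45.0% and 9 CpG dinucleotides.

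Considered together, the receptor genes held about the number of regions that their length and chromosomes give. A count by density was computed for each gene as its window length without undetermined bases multiplied by the regions per base of its chromosome. In IKKβf/f hearts the 11 regions stood against 11.1 by density, a ratio of 0.987 (exact Poisson 95% interval 0.493 to 1.77). In HRTΔIKKβ hearts the 22 regions stood against 20.5, a ratio of 1.07 (0.671 to 1.62). Over all 21418 genes the ratio was 1.04 and 1.08 in the same order. The share of receptor-gene regions that came from HRTΔIKKβ was 66.7% (22 of 33, exact Clopper-Pearson 95% interval 48.2 to 82.0), beside 64.6% over both whole lists. The receptor genes thus divided between the genotypes much as the lists did, which differed 1.83-fold in size. Without *Ryr2*, 10 regions stood against 8.27 and 14 against 15.4.

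**Figure D1:**
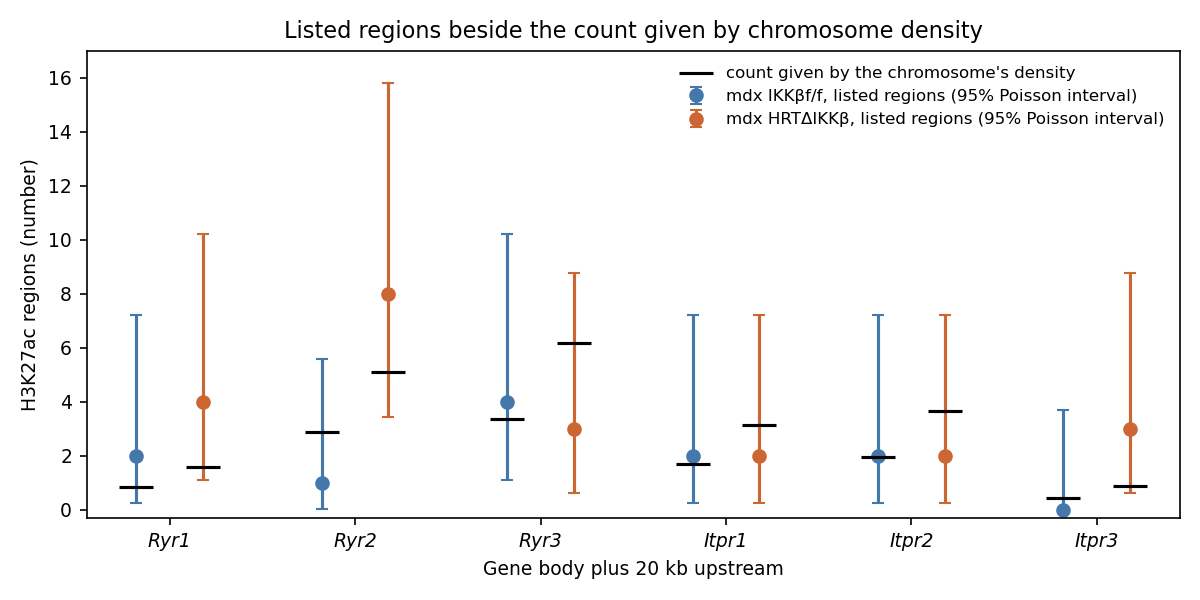
Number of listed H3K27ac regions in the window of each receptor gene (y axis, with exact Poisson 95% intervals of the count) beside the count given by the density of its chromosome, for both genotypes. *Ryr2* had 1 region in IKKβf/f hearts and 8 in HRTΔIKKβ hearts, *Itpr3* had 0 and 3, and every interval includes the count by density.

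Counts of single genes lay above and below their counts by density, though every interval included the count by density. In IKKβf/f hearts 5 of 6 genes had at least 1 region, all but *Itpr3*, beside 22.7% of all protein-coding genes and 54.3% of the 2926 whose window was at least 100 kb. In HRTΔIKKβ hearts 6 of 6 had at least 1, beside 36.4% and 71.8%. Of the receptor genes 5, all but *Itpr3*, have windows of at least 100 kb, so the shares of long genes are the nearer background for them. All 5 had a region in each genotype. *Ryr1*, *Ryr2* and *Itpr3* held more regions in HRTΔIKKβ hearts, *Itpr1* and *Itpr2* held equal numbers, and *Ryr3* held fewer. These 3 of 6 genes with more regions in HRTΔIKKβ hearts stand beside 28.6% of all genes. Of the 5 long receptor genes 2 had more, beside 51.9% of the long genes. A density of at least 2 times that of the chromosome, on at least 2 regions, was reached by 1 gene, *Ryr1*, in IKKβf/f hearts, where 4.83% of all genes and 15.4% of the long ones reached it. In HRTΔIKKβ hearts it was reached by *Ryr1* and *Itpr3*, beside 9.07% of all genes. Of the 5 long receptor genes 1, *Ryr1*, reached it there, beside 15.0% of the long genes. The median ratio to density over the 6 genes was 1.11 in IKKβf/f hearts and 1.10 in HRTΔIKKβ hearts, while over the long genes it was 0.62 and 0.808. These medians and the shares of long genes are not matched for length, as the median window was 386 kb for the receptor genes and 161 kb for the long genes. Summed over the long genes, the ratio was 1.04 in each genotype, near those of the receptor genes.

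**Figure D2:**
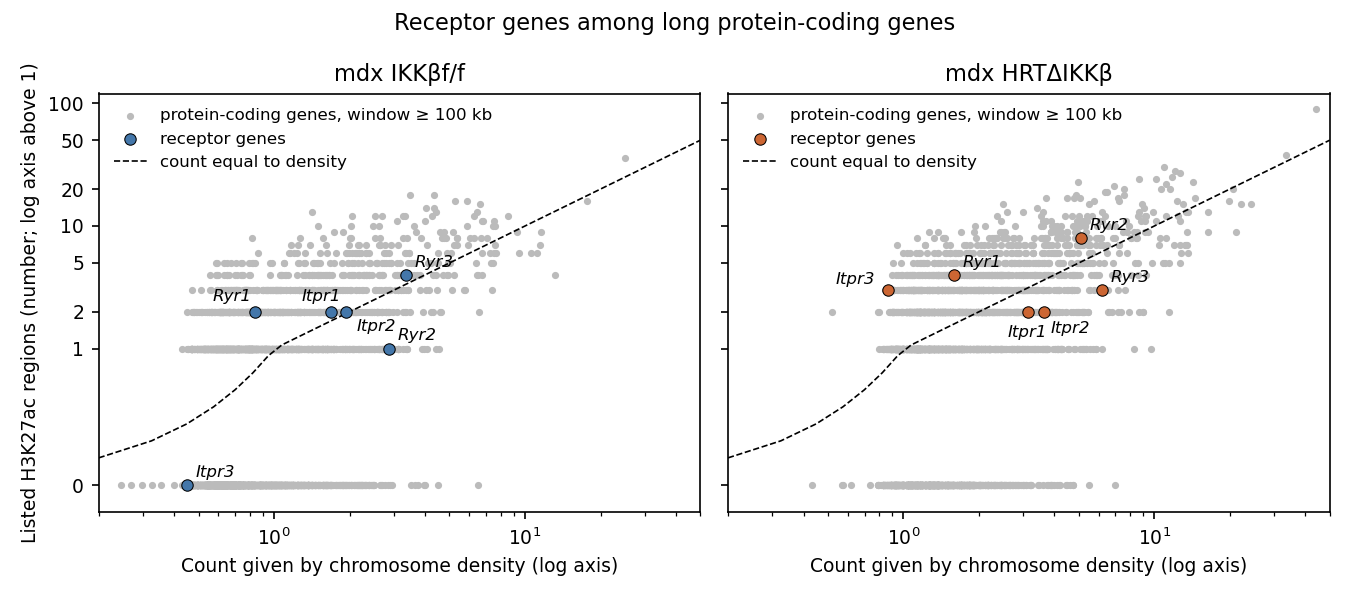
Listed regions (y axis, log above 1) against the count given by chromosome density (x axis, log) for protein-coding genes with a window of at least 100 kb (grey), with the 6 receptor genes in colour and a dashed line where both are equal. *Ryr2* lay below the line in IKKβf/f hearts (1 against 2.87) and above it in HRTΔIKKβ hearts (8 against 5.10), and *Ryr3* lay above it (4 against 3.36) and then below it (3 against 6.19).

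*Ryr2* had the largest difference in number of regions between the genotypes among the 6 genes, 7, while *Itpr3* had the larger share from HRTΔIKKβ hearts, with 3 of 3. It occupies chromosome 13 from 11645370 to 12199212 on the minus strand, spans 554 kb and has 105 exons in its longest coding transcript. In IKKβf/f hearts it held 1 region against 2.87 by density (interval of the count 0.0253 to 5.57). In HRTΔIKKβ hearts it held 8 against 5.10 (3.45 to 15.8). Both counts therefore had intervals that include the count by density. Of its 9 regions, 88.9% (51.8 to 99.7) came from HRTΔIKKβ, and the interval includes the 64.6% of the whole lists. An excess of at least 7 regions in HRTΔIKKβ hearts, a limit chosen after the *Ryr2* count was seen, occurred in 61 of the 2926 long genes, which is 2.08%. This share is not matched for length, since their median window was 161 kb and that of *Ryr2* is 574 kb. By its ratio to density, *Ryr2* stood above 46.3% of the long genes in IKKβf/f hearts and above 75.6% in HRTΔIKKβ hearts. In IKKβf/f hearts 45.7% of the long genes had no region, so nearly all genes ranked below *Ryr2* there had none.

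The only *Ryr2* region of IKKβf/f lay in intron 1, 86.6 kb from the 5′ end of the gene. It had 4.67 normalized tags, that is tags per 10000000 (exact Poisson 95% interval 3.08 to 6.79), a 4.65-fold enrichment over input and a peak score of 29, which was the calling threshold. The peak score is taken to be the largest number of tags in any 500 bp window of a region. In HRTΔIKKβ hearts the 8 *Ryr2* regions had peak scores of 31 to 38, and the nearest to the 5′ end lay in intron 1 at 9.49 kb, with 4.96 tags (3.37 to 7.04), a score of 31 and a 5.91-fold enrichment. At nearly the same distance on the other side, a region 9.50 kb upstream had 5.12 tags (3.50 to 7.23), a score of 34 and a 4.58-fold enrichment. After the intron 1 region none was listed for 307 kb, and the other 6 lay in the 3′ part of the gene, beyond its midpoint, centred in introns 22, 35, 38, 61, 62 and 80. The highest-scoring was the intron 62 region that contains the repeated GACAGACA, with 6.08 tags (4.31 to 8.35), a score of 38 and a 4.35-fold enrichment on 5 input tags. Its neighbour in intron 61 lay 747 bp away, with 5.12 tags, a score of 32 and a 6.1-fold enrichment. The regions in introns 35, 38 and 80 had 4.80 to 4.96 tags, scores of 31 to 33 and 4.29- to 4.43-fold enrichments. The region in intron 22 had the largest enrichment of the gene, 8.29-fold, on 2 input tags. A limit of 5-fold over input left 3 of the 8 regions, against 2.59 by density, and a score at least 5 tags above the lowest left 1, against 1.41. No region of either genotype lay within 3 kb of the start of *Ryr2*, and within its window the nearest regions of opposite genotypes were 76.6 kb apart.

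**Figure D3:**
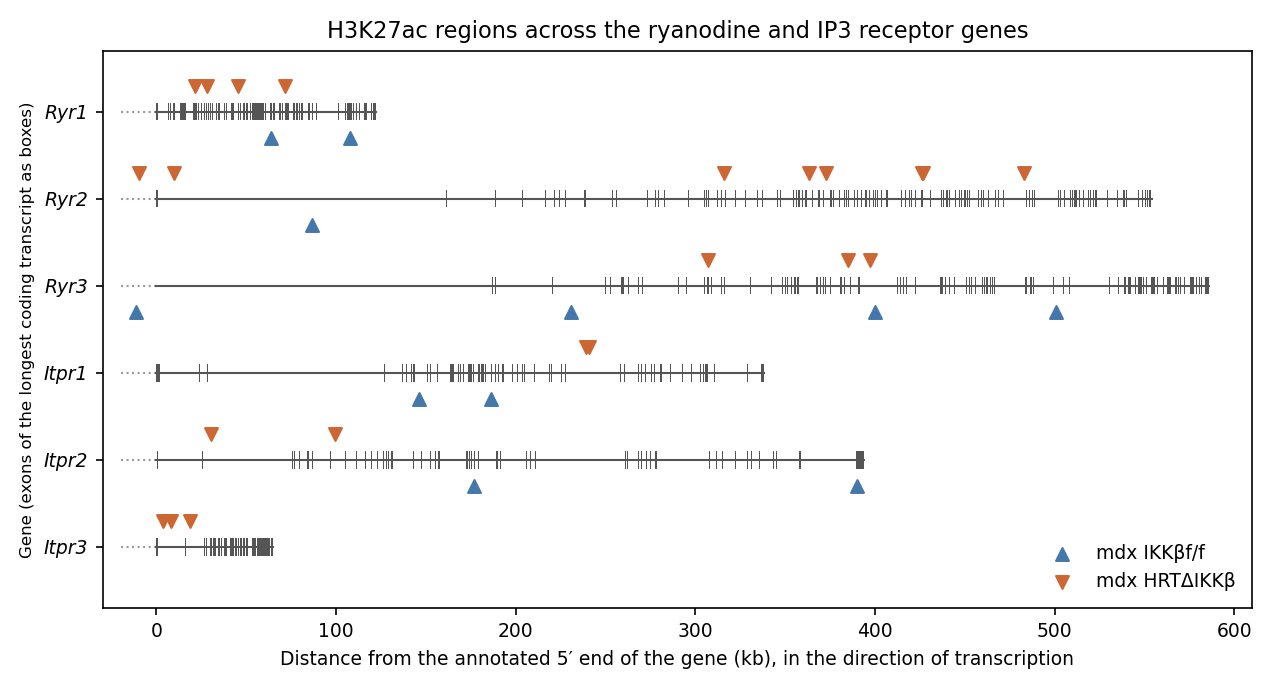
Position of every listed region along each receptor gene, drawn 5′ to 3′ with distance from the annotated 5′ end in kb on the x axis and the exons of the longest coding transcript as boxes, with the genotypes in separate colours. In *Ryr2* 6 of 8 HRTΔIKKβ regions lay in the 3′ part of the gene, beyond its midpoint, and in *Itpr3* all 3 lay within 18.5 kb of the 5′ end.

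*Ryr1* was the only gene above 2 times its density in both genotypes. It spans 122 kb of chromosome 7 (29788359 to 29910170, minus strand), and has 106 exons. It held 2 regions in IKKβf/f hearts against 0.837 by density (0.242 to 7.22), and 4 in HRTΔIKKβ hearts against 1.59 (1.09 to 10.2), so each count had an interval including the count by density. The GC content of its window was 50.2%, above the 43.0% of its chromosome, and against chromosome 7 windows of the same GC content the count by density was 1.62 in IKKβf/f hearts and 3.05 in HRTΔIKKβ hearts, so the 2 and 4 regions were then less than 2 times it. In IKKβf/f hearts the region nearest the 5′ end overlapped coding exon 65, with 5.19 tags (3.50 to 7.40), a score of 30 and a 4.13-fold enrichment. The other, in intron 93, also scored 30, with 4.49 tags (2.94 to 6.59) and a 5.97-fold enrichment. In HRTΔIKKβ hearts the 4 regions were centred in introns 17, 24, 38 and 72 with scores of 37, 37, 33 and 31. All 4 also overlapped coding exons, namely exons 18, 24, 38, and 72 with 73, that of exon 24 by 1 base. The region in intron 17 was, by its tags, both the highest-scoring and the nearest to the 5′ end, at 21.4 kb, with 5.76 tags (4.04 to 7.98) and a 6.86-fold enrichment. The intron 38 region also lies inside the annotated gene *Gm16799*, so its signal cannot be given to *Ryr1* alone. The nearest regions of opposite genotypes lay 7.72 kb apart.

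*Ryr3*, the longest of the 6 genes, was the only one with fewer regions in HRTΔIKKβ hearts. It spans 586 kb of chromosome 2 (112471512 to 113057253, minus strand), with 104 exons and 9 annotated transcripts. It held 4 regions in IKKβf/f hearts against 3.36 by density (1.09 to 10.2) and 3 in HRTΔIKKβ hearts against 6.19 (0.619 to 8.77). The highest-scoring region of IKKβf/f lay in intron 3, with 5.53 tags (3.78 to 7.81), a score of 33 and a 7.34-fold enrichment. The one nearest the 5′ end lay 11.2 kb upstream at the calling threshold of 29, with 4.49 tags (2.94 to 6.59) and a 5.97-fold enrichment. In HRTΔIKKβ hearts a region over coding exon 14, equal in score, was both the highest-scoring of that genotype and the nearest to the 5′ end, at 307 kb, with 5.28 tags (3.64 to 7.42) and a score of 33. Its 18.88-fold enrichment was the largest of all 33 regions and rested on 1 input tag, whose own interval is 0.0253 to 5.57. This region lies 2.02 kb from the start of a shorter *Ryr3* transcript, which made it the only receptor-gene region within 3 kb of an annotated start of its gene.

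Intron 38 of *Ryr3* held the only receptor-gene regions of opposite genotypes within 5 kb of each other. The IKKβf/f region, 629 bp wide, had 5.7 tags (3.93 to 8.01), a score of 29 and a 7.57-fold enrichment. The HRTΔIKKβ region, 2.20 kb away, had 4.80 tags (3.24 to 6.86), a score of 32 and a 5.72-fold enrichment. Their tag intervals overlapped, but the regions did not share a base, so neither has a value in the other list.

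The IP3 receptors as a family held 4 regions in IKKβf/f hearts against 4.07 by density and 7 in HRTΔIKKβ hearts against 7.67, while the ryanodine receptors held 7 against 7.07 and 15 against 12.9. *Itpr2*, the cardiomyocyte isoform, spans 394 kb of chromosome 6 (146056821 to 146450745, minus strand), and held 2 regions in each genotype against 1.94 and 3.65 by density. Its IKKβf/f region over coding exon 31 had the highest score of that genotype among the receptor genes, 40, with 6.91 tags (4.94 to 9.42) and a 4.59-fold enrichment. It was also the nearest to the 5′ end, at 177 kb. The other was centred in intron 56, at the threshold of 29. In HRTΔIKKβ hearts the region in intron 10 had the highest values of all 33 regions, 9.61 tags (7.33 to 12.4) and a score of 46, above 98.5% of its list. It was 692 bp wide and enriched 11.44-fold on 3 input tags, and this is the region with the repeated CTGCACAG. The nearest to the 5′ end lay in intron 2, 30.6 kb away, with 4.80 tags (3.24 to 6.86), a score of 30 and an 8.58-fold enrichment on 2 input tags.

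*Itpr1*, on the plus strand of chromosome 6 from 108163112 to 108501103, spans 338 kb and also held 2 regions in each genotype, against 1.68 and 3.15 by density. Both IKKβf/f regions were at the threshold of 29. The one in intron 10 was nearest the 5′ end, with 4.49 tags (2.94 to 6.59) and a 4.47-fold enrichment, and the one in intron 30 had 4.84 tags (3.22 to 7.00) and a 6.42-fold enrichment. In HRTΔIKKβ hearts both regions lay in intron 44, 1010 bp apart, and both were at the threshold of 30. The wider of them, 649 bp, had 6.40 tags (4.58 to 8.72) and a 4.58-fold enrichment, and the other had 4.96 tags (3.37 to 7.04) and a 5.91-fold enrichment. *Itpr1* was thus the gene with every region at the lowest score its list allowed. With the HRTΔIKKβ threshold of 32 tags, its regions in those hearts fell from 2 to 0 and those of *Itpr2* from 2 to 1.

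*Itpr3*, the shortest of the 6 genes at 64.9 kb, lies on the plus strand of chromosome 17 from 27194249 to 27259168. It had no region in IKKβf/f hearts, where its density gave 0.45 and a count of 0 allows up to 3.69. In HRTΔIKKβ hearts it had 3 against 0.869 (0.619 to 8.77), again with an interval that includes this count by density. Its window had a GC content of 54.5%, above the 42.7% of its chromosome, and at matched GC content the count by density was 2.24, so the 3 regions were then less than 2 times it. A limit of 5-fold over input left 1 of them, against 0.437 by density. All 3 were left both by a score at least 5 tags above the lowest, against 0.288, and by the threshold of 32 tags, against 0.564. These counts by density lie below the interval, but they were not matched for GC content. Whether matched counts would also lie below it was not tested. All 3 regions lay near the 5′ end of the gene. The first, in intron 1 at 3.75 kb, had 5.44 tags (3.77 to 7.61), a score of 35 and a 9.72-fold enrichment on 2 input tags. The second, also in intron 1, had a score of 41 and a 4.0-fold enrichment. The highest-scoring, in intron 2 at 18.5 kb, had 6.88 tags (4.98 to 9.27), a score of 43 and a 4.10-fold enrichment on 6 input tags. With scores above 71.2% to 96.4% of their list, 2 of them ranked just below *Itpr2* intron 10 among the scores of the 22 receptor-gene regions of HRTΔIKKβ hearts.

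Most receptor-gene regions lay close to the calling limit, as did most of each list. In IKKβf/f hearts the scores ran from 29 to 40 with a median of 29, against 31 for the whole list, and 6 of 11 were at the threshold itself, compared with 19.9% of the list. In HRTΔIKKβ hearts they ran from 30 to 46 with a median of 33, against 32, and 3 of 22 were at the threshold, compared with 21.9%. A score under 5 tags above the lowest was found for 10 of 11 and 15 of 22 regions, compared with 73.6% and 71.2% of the lists. Input was thin under these regions, with 3 to 6 tags in IKKβf/f hearts and 1 to 6 in HRTΔIKKβ hearts. A value of 3 input tags has an interval of 0.619 to 8.77, so each enrichment is known only loosely. An enrichment of at least 8-fold was found for 0 of 11 and 5 of 22 regions, compared with 14.8% and 20.7% of the lists.

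**Figure D4:**
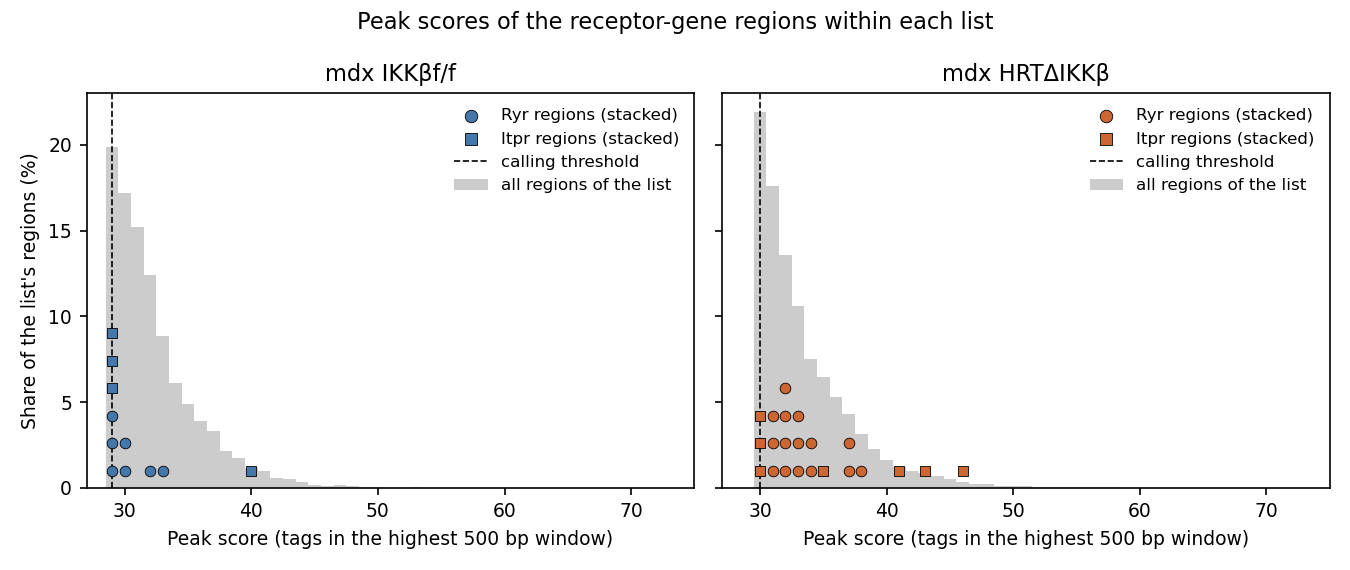
Distribution of peak scores over each whole list (bars, share of regions in percent), with the receptor-gene regions marked by family (ryanodine or IP3 receptors). A dashed line stands at the calling threshold of 29 in IKKβf/f hearts and 30 in HRTΔIKKβ hearts. The highest receptor-gene scores were 40 and 46, both in *Itpr2*.

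The centres of the regions were intronic in about the proportion that introns take of these genes. Introns held the centres of 28 of 33 regions, 84.8% (68.1 to 94.9), and made up 87.3% of the window bases. Coding exons of the longest transcripts were touched by the centres of 3 regions, in *Ryr1*, *Ryr3* and *Itpr2*, and 2 regions lay upstream, of *Ryr2* and *Ryr3*. Of the 28 with an intronic centre, 7 overlapped an exon in part, 4 in *Ryr1*, 2 in *Ryr2* and 1 in *Itpr2*. None of the 33 lay within 3 kb of the annotated 5′ end of its gene, and 1, that of *Ryr3* exon 14, lay within 3 kb of an internal start. No receptor-gene region overlapped one of the other genotype, and 3.18% of the IKKβf/f list and 1.74% of the HRTΔIKKβ list did. Shares this small give few or none among 11 and 22 regions, so this does not set the receptor genes apart. The *Ryr3* pair made 1 of 11 and 1 of 22 regions within 5 kb of the other genotype, compared with 17.7% and 10.1% of the lists.

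Sequence repetition set some of these regions apart from others. It was measured as the number of distinct 8-base words in the central 500 bp, which can be at most 493. Fewer than 450, a limit chosen after the values were seen, were found in 7 of 33 receptor-gene regions (21.2%) and in 6.71% of all regions. The *Itpr2* intron 10 region had 132, fewer than all but 0.218% of its list. *Ryr2* had 4 such regions among its 8 in HRTΔIKKβ hearts, with 436 to 446 words, in introns 1, 38, 61 and 62. The other 2 were in intron 38 of *Ryr1* in HRTΔIKKβ hearts, with 442 words, and in intron 10 of *Itpr1* in IKKβf/f hearts, with 418. Without repetitive regions, in the list as in the gene, *Ryr2* held 4 regions in HRTΔIKKβ hearts against 4.74 by density. Whether repetition affected the mapping of reads there was not tested.

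**Figure D5:**
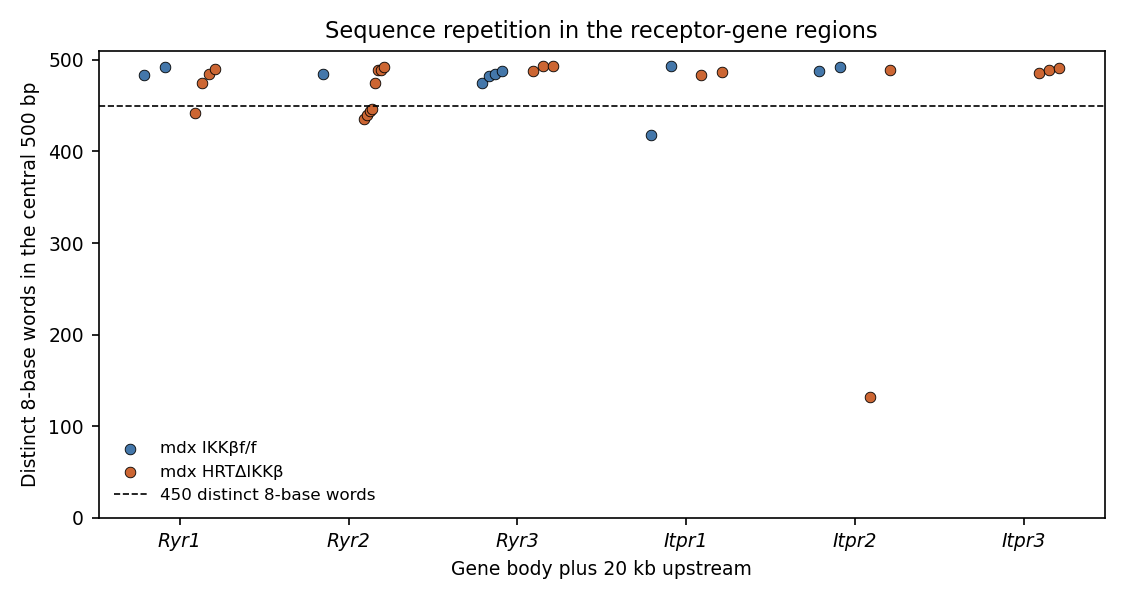
Number of distinct 8-base words in the central 500 bp of each receptor-gene region (y axis, at most 493), by gene and genotype, where a low value means a repetitive sequence. Most regions lay above 450, 4 *Ryr2* regions of HRTΔIKKβ lay between 436 and 446, and the *Itpr2* region in intron 10 lay at 132.

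Matches to 4 factor motifs were sought on both strands of the central 500 bp. The NF-κB motif was searched as GGGA, any base, TTTCC, the CTCF motif as CCA and AG and GGC with 2 free bases between each, the MEF2 motif as CTA and TAG with 4 free bases between, and the GATA motif as AGATAA. NF-κB and CTCF matches were found in 0 of 33 regions, compared with 0.519% and 2.59% of all regions. A MEF2 match was found in 1, in intron 35 of *Ryr3* in HRTΔIKKβ hearts, which is 3.03% beside 7.06%. GATA matches were found in 7, 21.2% beside 21.8%, in *Ryr2*, *Ryr3*, *Itpr1*, *Itpr2* and *Itpr3*. None of the 6 printed stretches held a match.

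The genes of proteins that work with these channels are shorter, with a median window of 49.7 kb for ryanodine receptor partners and 52.4 kb for the IP3 list, beside 386 kb for the receptor genes. Genes of ryanodine receptor partners, which anchor, buffer or regulate the release unit, numbered 20 entries for 19 symbols and held 11 regions against 17.7 by density in IKKβf/f hearts and 25 against 31.4 in HRTΔIKKβ hearts. Of these entries 3 (15.0%) had a region in IKKβf/f hearts and 10 (50%) in HRTΔIKKβ hearts, beside 22.7% and 36.4% of all genes. The most regions were found in the longer entry of *Pde4d*, a cAMP phosphodiesterase, with 7 in each genotype against 7.62 and 13.5. *Jph3*, a junctophilin that ties the endoplasmic reticulum to the plasma membrane, had 3 and 5 against 0.475 and 0.834. *Trdn*, which encodes triadin, had 0 and 3 against 1.98 and 3.42, and *Asph*, the locus of junctin, had 1 and 2 against 1.39 and 2.56.

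Genes that make or remove IP3 or bind its receptors, 26 in number, held 13 regions against 17.1 in IKKβf/f hearts and 30 against 31.5 in HRTΔIKKβ hearts. A region was found in 9 (34.6%) and 11 (42.3%) of them, beside 22.7% and 36.4% of all genes. *Inpp5a*, an IP3 phosphatase, had 1 and 6 against 1.24 and 2.37. The phospholipase C genes *Plcb1* and *Plcg2* each had 0 and 6, against 3.94 and 7.24 for *Plcb1* and against 0.88 and 1.54 for *Plcg2*. *Plce1*, another phospholipase C gene, went the other way with 4 and 2 against 1.48 and 2.57.

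Other calcium-handling families were set beside the receptor genes, which had ratios of 0.987 (0.493 to 1.77) in IKKβf/f hearts and 1.07 (0.671 to 1.62) in HRTΔIKKβ hearts. The 9 autosomal voltage-gated calcium channel alpha-1 genes had ratios of 2.22 (1.43 to 3.27) and 2.44 (1.81 to 3.20). The intervals of the receptor and channel genes overlapped in IKKβf/f hearts and did not overlap in HRTΔIKKβ hearts. The 9 calcium pump and sodium-calcium exchanger genes had ratios of 2.24 (1.23 to 3.76) and 1.48 (0.859 to 2.36), which overlapped the intervals of the receptor genes. *Atp2b2*, a plasma membrane calcium pump, held 10 of their 14 regions and 10 of their 17. Without it the other 8 had ratios of 0.842 (0.229 to 2.15) and 0.802 (0.322 to 1.65). No test of these differences between families was made, since regions of 1 library are not replicates. The ratios are not matched for GC content, and a GC-matched density was computed for the receptor genes only.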

How the data were processed

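H3K27ac ChIP-seq regions from 1 whole-heart library per genotype were used, with inputs entering only through the input columns of the lists. Per the submitters' processing notes and the paper's methods, reads were aligned to mm9 with Bowtie2 and regions were called with HOMER findPeaks in histone mode (versions not given in the sources used here). Windows of 500 bp above a Poisson threshold were stitched within 1000 bp and kept at 4-fold or more over input. Normalized tags are a score that the authors scaled to 10000000 tags per library. The findPeaks score was deposited unscaled and is taken to be the tag number of the highest window, since its lowest value is the threshold of the list. It was not counted exactly as the normalized tags were, as the *Ryr1* regions of equal score and width with 5.19 and 4.49 tags show. ChIP tags scaled by the authors to the input depth, and unscaled input tags, are a deposited signal. From these the authors also computed the deposited ratio of ChIP to input, given here as fold enrichment, and the p-value that the authors deposited is Poisson, given the input tags. It entered no result here.

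Regions were assigned to genes by their centre with GENCODE vM1, as given by the NCBIM37 annotation, whose chromosome names and lengths match mm9. Only autosomes were used for density. Intervals are 95% exact Poisson for counts and tags and exact Clopper-Pearson for shares. Scripts used pysam 0.24.0, SciPy 1.17.1, pandas 2.3.3, NumPy 2.4.6 and matplotlib 3.10.9 under Python 3.11.15, and passed 16 of 16 checks with known answers. The members and lists were chosen with earlier results of these data known. For each gene and genotype the text names the region with the highest peak score, that nearest the 5′ end and any within 5 kb of the other genotype, and of each partner list the 3 genes with the most regions, ties included. Other regions, such as the rest of those in *Ryr2* and *Itpr3*, were named after their values were seen. X-linked members of the comparison families were left out. Alternatives were stricter limits on fold and score, merging within 1000 bp, other windows (gene body only, 50 kb upstream), overlap in place of centres, other densities, and a threshold or depth set as in IKKβf/f hearts.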

Additional observations from a re-analysis of the deposited data

How the results depend on the processing

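The number of receptor-gene regions changed most with limits on enrichment and score. At 5-fold over input 7 regions were left in IKKβf/f hearts and 11 in HRTΔIKKβ hearts. At 8-fold 0 and 5 were left, against 1.65 and 4.46 by density. This is a ratio of 0 in IKKβf/f hearts and a share from HRTΔIKKβ of 100%, while the lists held 1862 and 4754 autosomal regions at 8-fold. With scores at least 5 tags above the lowest, 1 and 7 were left, against 2.96 and 5.81 by density. The ratio was then 0.338 in IKKβf/f hearts and the share 87.5%. Both shares rest on these few regions. Without *Ryr2*, an alternative chosen after seeing the data, 14 were left in HRTΔIKKβ hearts against 15.4 by density, and the share was 58.3%. With at least 450 distinct 8-base words, also chosen after seeing the data, 10 and 16 were left. The other 46 of 57 values for the 6 genes moved by less than their counting interval or by less than 1.5 times. For single genes 34 of 154 values moved further. For *Ryr2* in HRTΔIKKβ hearts 3 regions were left at 5-fold, 1 at 8-fold and 1 at the higher score. At the threshold of 32 tags 6 were left, after merging 7 and without repetitive regions 4. The family of calcium pumps and exchangers without *Atp2b2*, also chosen after seeing the data, had ratios of 0.842 and 0.802. A GC-matched density gave ratios of 0.843 and 0.897 for the 6 genes. No replicate could be left out with 1 library per genotype. No paired analysis was possible because each genotype has 1 ChIP library and no result comes from a test. Depth limits these counts, since most regions lay within a few tags of the threshold and rested on 6 input tags or fewer. Windows under the limits of the lists were not used here, so a count of 0 does not show an absence of H3K27ac.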
